A study of Mus musculus with 2 samples.

Results

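Tight clusters of CTCF sites in mouse embryonic stem cells (ESCs) are described here. A clustered site is a deposited CTCF summit on chromosomes 1 to 19 with at least 2 other summits within 5 kb, and clustered sites less than 5 kb apart were joined into 1 cluster. The members were selected on measured values, namely the positions of the summits called in the CTCF library over the IgG library. Of the 33207 summits that entered, 2363 (7.12%) met the rule, 7980 had 1 other summit within 5 kb and 22864 had 0 others. The 19 summits in a stretch of chromosome 8 around Ctcf were left out of all 3 classes.

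The study mapped CTCF and the cohesin subunit RAD21 to ask how chromosome organisation is tied to the ESC state, and the CTCF part consists of 2 libraries. Both come from R1/E ESCs that carry a stably integrated bacterial artificial chromosome (BAC) with the CTCF gene fused to a LAP tag containing GFP, so that the tagged protein is made in addition to that of the endogenous gene. The chromatin was crosslinked with formaldehyde at 1%, and 1 library was precipitated with a goat antibody against GFP and the other with goat IgG as an isotype control, which the labels also call input DNA. The libraries hold 8391191 CTCF and 7988889 IgG tags of 35 bp. There is 1 library per antibody, so no value below has a replicate check, and the intervals are 95% intervals that cover counting error only.

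CTCF is a zinc finger protein that binds an asymmetric DNA motif and acts as an insulator and as an anchor of chromatin loops together with cohesin. Because the motif is asymmetric, each site has a direction, and loops are known to form most often between sites whose motifs point toward each other. Groups of CTCF sites are a known feature of loci such as the clustered protocadherin genes and the 3′ end of the immunoglobulin heavy chain locus.

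The motifs of 6 clusters and of 1 single clustered site are printed first, since the strand, the strength and the repeated strings described below can be read from them. Each run is from the mm9 assembly, 5′ to 3′ along the strand of the motif. The capitals mark the 19 bases matched by the motif matrix, whose coordinates are given, and the lower case letters are the 5 bases on either side. Clusters are named after the nearest or overlapping gene. The first set lies between genes on chromosome 12 and was chosen for its 5 motifs on 1 strand.
Tmem121 cluster, chr12:114455670-114455688, plus strand: gcaatTGGACACTAGGGGGCATTTaagct
Tmem121 cluster, chr12:114458261-114458279, plus strand: gcatcTAGCCACCAGGGGGCACATgagct
Tmem121 cluster, chr12:114459616-114459634, plus strand: gcatcTGTCCACCAGGGGGCACCTgagca
Tmem121 cluster, chr12:114460424-114460442, plus strand: accaaTGGCCACATGGTGGCAGCAgagat
Tmem121 cluster, chr12:114462604-114462622, plus strand: cacccAGTCCTCTAGAGGGAGCCCctgag

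The Calm3 cluster, between genes on chromosome 7, is the other cluster of 6 with 5 motifs among those with the most members, and its last motif faces the first 4.
Calm3 cluster, chr7:17513883-17513901, plus strand: cgaggTTGCCAGAAGAGGGCTTTGgatac
Calm3 cluster, chr7:17516371-17516389, plus strand: ttcatGTGCCACTAGAGGGCTCTCtggtg
Calm3 cluster, chr7:17517506-17517524, plus strand: tcagtTGACCACCAGGTGGCGCTAtggta
Calm3 cluster, chr7:17518466-17518484, plus strand: attacTGACCACCAGACGGCGCTCtgcat
Calm3 cluster, chr7:17522837-17522855, minus strand: cagggCAGACAGAAGGGGGCGCTAgtctc

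Clusters in which members share the same 19 bases were found in 2 places, both on chromosome 11. One lies in an intron of the non-coding gene 2610035D17Rik, 390347 bp from the start of Sox9, and the other in Igf2bp1, an RNA-binding protein gene, where the second motif belongs to a summit in an exon of a non-coding transcript and the others are intronic.
2610035D17Rik cluster, chr11:113033912-113033930, plus strand: cacacGCACCACTAGGTGGCGACAgagcc
2610035D17Rik cluster, chr11:113036796-113036814, plus strand: ctaccTGGACACTAGAGGGCGCCAtaccc
2610035D17Rik cluster, chr11:113037663-113037681, plus strand: ctaccTGGACACTAGAGGGCGCCAtaccc
Igf2bp1 cluster, chr11:95837208-95837226, plus strand: cctgcATGCCAGAAGAGGGCATCAgatca
Igf2bp1 cluster, chr11:95840004-95840022, minus strand: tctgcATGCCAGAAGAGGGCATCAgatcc
Igf2bp1 cluster, chr11:95842513-95842531, minus strand: tgtagGGGCCAGAAGAGGGCATCTgatcc

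The Tbx3 cluster on chromosome 5 is shown because strong motifs go with low summits there, and the H13 cluster on chromosome 2 because it lies at Mcts2, a gene of the imprinted list. The last is the single clustered site in a coding exon of Pou5f1, which encodes the pluripotency factor OCT4.
Tbx3 cluster, chr5:120153214-120153232, plus strand: cacagAGGCCAGAAGAGGGCACTGgatcc
Tbx3 cluster, chr5:120159042-120159060, plus strand: catggAGGCCAGAAGAGGGCACCAgattc
Tbx3 cluster, chr5:120163069-120163087, minus strand: gctcaTGGCCACGAGGGGGCAGCAgagcc
H13 cluster, chr2:152517833-152517851, plus strand: ctggtCAGCCAGAAGAGGGAGCCCtgctt
H13 cluster, chr2:152519157-152519175, plus strand: ggtgtCGGTCACCAGGGGGCGCTAagccc
H13 cluster, chr2:152522679-152522697, plus strand: ccctgCGGCCACCAGGTGGCGGGCttgcc
Pou5f1 site, chr17:35646424-35646442, minus strand: ccactTCTCCAGCAGGGGCCGCAGcttac

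The 2363 clustered sites formed 986 clusters, of which 580 had at least 3 members and together held 1911 of the sites. Groups of exactly 3 were the most frequent with 449 clusters, followed by 107 groups of 4, 14 of 5, 6 of 6, 2 of 7 and 2 of 8. A further 360 clusters were a single site whose neighbours did not themselves have 2 others within 5 kb, and 46 held 2 sites. Most members had the smallest number of neighbours that the rule admits, with 1903 at 2 others, 410 at 3, 48 at 4 and 2 at 5. The clusters of at least 3 spanned a median of 4132 bp from first to last summit (quartiles 3145 to 4815) and ranged from 1339 to 18850 bp.

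The site just inside the rule, on chromosome 8 at position 123118725 near Gins2, had its second nearest summit at 5000 bp, with a height of 25 tags and a score of 220.53. The one just outside, on chromosome 14 at position 27310775 near Gm2178, had it at 5003 bp, with a height of 16 and a score of 149.14. They differ by 3 bp in the measure that the rule used, and neither is a low peak.

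The 1377 pairs of neighbouring members lay a median of 1742 bp apart (quartiles 1111 to 2572, range 356 to 4959), and 290 pairs were under 1 kb apart. Each member is the summit of its own deposited peak, so some separation is set by the peak calls. The pileup of CTCF tags, extended to the fragment length of 184 bp, fell to 0 between the summits in 1263 pairs (91.7%), and it stayed above 25% of the lower summit in 6 pairs, with a maximum of 37.5%. At this depth a pileup of 0 is easily reached, since the sequence between members outside peaks held 12710 CTCF tags on 1498393 bp. It therefore does not by itself show that sites are separate. The deposited peak edges left a median gap of 826 bp, the smallest being 1 bp. Neighbours were often of unlike height, with a median ratio of higher to lower of 1.5 and a ratio of at least 2 in 356 pairs (25.9%).

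**Figure D1:**
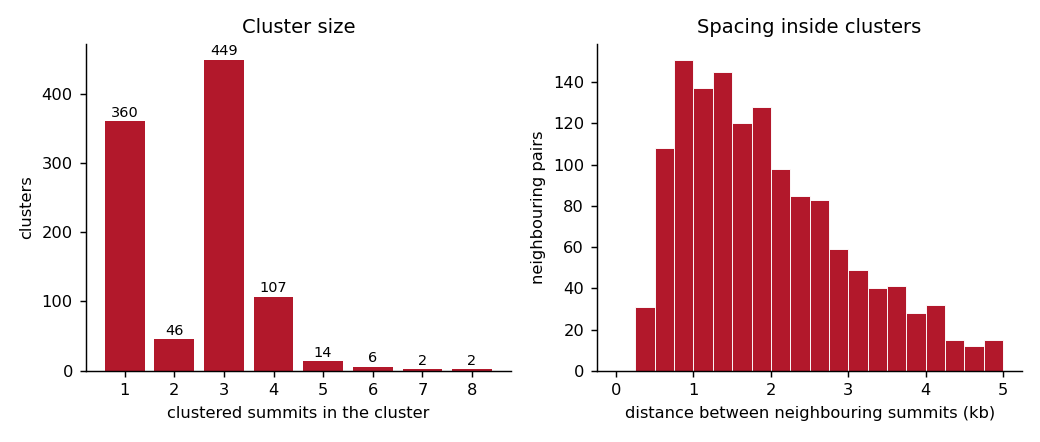
Left, the number of clusters by the number of clustered summits in them. Right, the number of neighbouring pairs by their distance in bins of 250 bp. Groups of 3 (449 clusters) are the most frequent above single sites, and the bin from 750 to 1000 bp holds the most pairs, 151.

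The median heights of the classes lay within 1 tag of each other, but low summits made up more of the clustered sites. Their median summit height, the number of overlapping tags at the summit, was 12 (quartiles 9 to 17, range 6 to 61), beside a median of 13 at sites with 1 other and at sites with 0 others within 5 kb. Heights of 6 to 9 tags were found at 26.2% of members (620 sites), 23.9% of sites with 1 other and 20.7% of sites with 0 others. The median MACS score was 117 in the clusters, 120 with 1 other and 117 with 0 others. CTCF tags within 150 bp of the summit were at least 5 times the IgG tags, after scaling by depth and with at least 3 IgG tags assumed, at 981 members or 41.5%, and 43.4% of all summits passed the same limit. Pooled over the members, the ratio to IgG was 15.3 (14.7 to 16, from 38069 CTCF and 2364 IgG tags; exact interval), 14.6 (14.2 to 14.9) with 1 other and 14.1 (13.9 to 14.3) with 0 others. These heights, scores and ratios come from the same contrast as the summit calls, so they are given as a description.

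Inside a cluster the heights were uneven. In the clusters of at least 3 the highest member had a median height of 18 (quartiles 15 to 23), the second 13 (11 to 16), the third 9 (8 to 11) and those below the third 8 (7 to 10), an order that the ranking itself fixes. The highest exceeded the lowest by a median of 2 times (quartiles 1.61 to 2.5, range 1 to 5.67). In the 449 groups of 3 the middle site was the highest in 140 (31.2%). The ratio of CTCF to IgG tags at members differed little with the number of members, from 13.8 (12.6 to 15.2) in groups of 4 to 16.8 (14 to 20.3) in groups of 5 or more, with 15.5 (14.7 to 16.4) in groups of 3.

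The CTCF motif was not used by the rule. It was searched as a match at p 1e-05 to a matrix made from 192 CTCF sequences, with its centre within 150 bp of the summit. A motif was found at 1564 members or 66.2% (Wilson interval 64.3 to 68.1), where 73.5% of all summits had one. The share was 70.2% (69.1 to 71.1) with 1 other and 75.5% (74.9 to 76.0) with 0 others within 5 kb. The difference between members and sites with 0 others was -9.29 percentage points (Newcombe interval -11.3 to -7.33), and that between members and sites with 1 other was -3.96 (-6.14 to -1.83). Clustered sites therefore had a motif less often than solitary sites by more than the counting error. Among peaks with a score of at least 100 the difference was -0.952 points, with an interval from -4.78 to 2.42 that includes 0.

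The shortfall was found at the lower summits. At heights of 6 to 9 tags, 39.0% (35.3 to 42.9) of 620 members had a motif, beside 60.3% (58.9 to 61.7) of 4728 sites with 0 others, a difference of -21.3 points (-25.3 to -17.2). At heights of 10 to 13 the shares were 62.9% and 73.1%, a difference of -10.2 points (-13.9 to -6.70). At heights of 14 to 19 they were 84.4% and 82.8%, with an interval of the difference from -1.59 to 4.41 points, and at 20 or more 87.4% and 87.7%, with an interval from -4.21 to 2.83. Above 13 tags no difference was thus detectable, and the intervals leave room for at most a few points in either direction. The shortfall at low summits was smaller beside sites with 1 other, which had 44.2% at 6 to 9 tags and 69.4% at 10 to 13. Members differed from these by -5.14 points (-9.52 to -0.662) and -6.49 points (-10.4 to -2.65). Much of the difference at 6 to 9 tags was thus shared by sites with a single neighbour.

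Among the low summits the share followed the distance to the nearest other summit. Of the low members with another summit within 1 kb, 24.8% (19.5 to 30.9, 54 of 218) had a motif, and the share was 41.9% (35.9 to 48.1) at 1 to 2 kb, 51.4% (42.0 to 60.8) at 2 to 3 kb and 60.8% (47.1 to 73.0, 51 sites) at 3 to 5 kb. All summits of this height gave 25.8%, 42.7%, 50.7% and 54.2% over the same distances, and then 59.5%, 60.9% and 59.8% at 5 to 10, 10 to 50 and over 50 kb. The share therefore rose over the first kilobases and was level beyond 5 kb. The CTCF to IgG ratio was 12.1 (11.3 to 13) at members without a motif and 16.9 (16.1 to 17.8) at members with one, where a ratio well above 1 is set by the peak calls. CTCF tags between the members were also raised, as described below, and their part in the low summits without a motif was not tested.

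**Figure D2:**
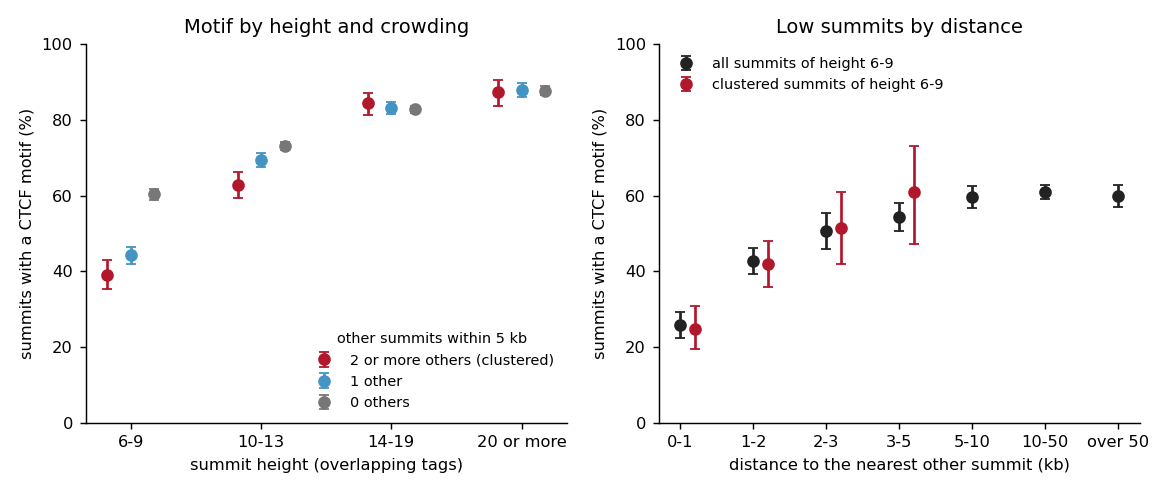
Left, the percentage of summits with a CTCF motif by summit height, for summits with 2 or more, 1 and 0 others within 5 kb. Right, the same percentage at heights of 6 to 9 tags by distance to the nearest other summit. Bars are 95% Wilson intervals. The classes differ at 6 to 9 tags (39.0%, 44.2% and 60.3%) and lie together at 20 or more (87.4%, 87.9% and 87.7%).

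Within a cluster the highest member had a motif in 81.9% of cases (78.6 to 84.8), the second in 70.5% (66.7 to 74.1), the third in 50.0% (45.9 to 54.1) and those below the third in 31.0% (24.5 to 38.3). The intervals of these ranks do not overlap, but the ranks are ranks of height. At sites with 0 others the share also rose with height, from 60.3% at 6 to 9 tags to 87.7% at 20 or more. A part of rank apart from height was not tested. Of the 580 clusters, 13 had 0 members with a motif, 131 had 1, 242 had 2, 169 had 3, 20 had 4 and 5 had 5. Every member had a motif in 137 clusters (23.6%). By cluster size, the share was 75.8% (71.2 to 80.0) at the 360 single sites, 65.7% (63.1 to 68.2) in groups of 3 and 59.8% (55.1 to 64.4) in groups of 4, with 63.2% (54.9 to 70.9) in groups of 5 or more.

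**Figure D3:**
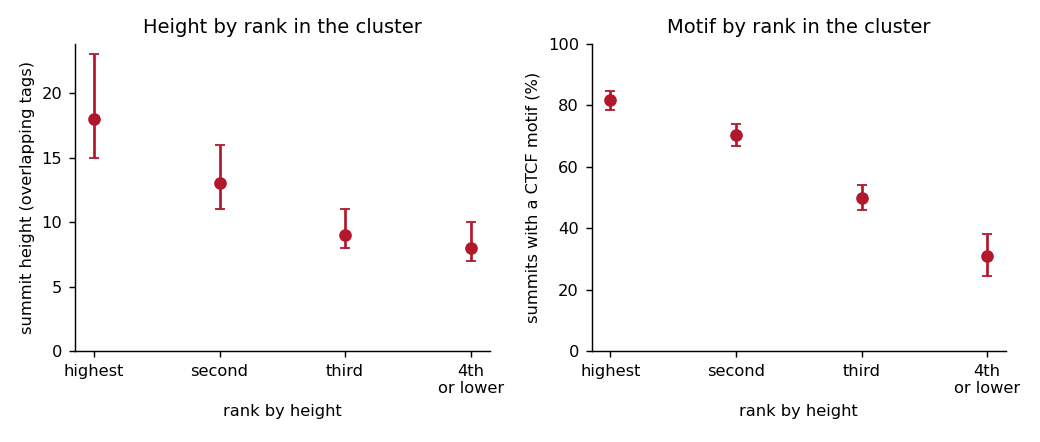
Height and motif share by rank of height within the 580 clusters of at least 3 members. Left, points are medians and bars are quartiles. Right, points are percentages and bars are 95% Wilson intervals. Both fall from the highest member (18 tags, 81.9%) to those below the third (8 tags, 31.0%).

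Where a motif was present, its match was of similar strength in clusters and elsewhere. The median match was 19.5 bits (quartiles 17.2 to 21.6) at members, 19.3 with 1 other and 19.1 with 0 others, on a scale on which 13.1 bits was the threshold and 26.4 the maximum. The motif centre lay a median of 57.5 bp from the summit at members and 51.0 bp at sites with 0 others.

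A single string made up a large part of these motifs. At bases 6 to 14, counted from 1 at the 5′ end of the capitals, AGAAGAGGG was the most frequent of all strings, with 4840 of 24420 motifs (19.8%), and the next, AGCAGAGGG, had 5.17%. The string was looked for at this place only, in the strand of the motif, and it was picked after it had been seen to recur among the printed motifs, as in both plus-strand motifs of the Tbx3 cluster and all 3 of the Igf2bp1 cluster. Among members with a motif 343 of 1564 carried it, or 21.9% (20.0 to 24.0), beside 19.3% (18.8 to 19.9) of the sites with 0 others, a difference of 2.59 points (0.521 to 4.79). Sites with 1 other had 20.7%, and the interval of their difference from members, -1.03 to 3.59 points, includes 0. It was more frequent at low summits, with 30.2% at heights of 6 to 9 and 12.3% at 20 or more among members, and 26.1% and 13.7% among sites with 0 others. In 51 clusters at least 2 members carried it and in 235 only 1 did. The numbers to be had from its frequency among all motifs were not set beside these counts. Some mouse interspersed repeats are known to carry CTCF motifs, but repeats were not annotated here, so no motif was assigned to one.

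Identical motifs were rare. Neighbouring members with a motif each shared all 19 bases in 2 of 533 pairs (0.375%, interval 0.103 to 1.36), where neighbours 5 to 50 kb apart did so in 0.225%. In the 2610035D17Rik cluster the identical motifs start 867 bp apart on the same strand, and the match runs on for 38 bases in all. In the Igf2bp1 cluster they start 2796 bp apart on opposite strands within a match of 27 bases.

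The motifs of neighbouring members pointed the same way in 283 of 533 pairs, or 53.1% (48.9 to 57.3), toward each other in 21.4% (18.1 to 25.1) and away from each other in 25.5% (22.0 to 29.4). Neighbouring summits 5 to 50 kb apart gave 50.7%, 22.0% and 27.4%, and the intervals of all 3 differences include 0, at -1.96 to 6.72 points for the same strand, -3.95 to 3.20 for facing motifs and -5.47 to 2.13 for motifs pointing apart. Neighbours over 50 kb apart were different, with 31.9% (30.7 to 33.1) facing each other and 19.2% (18.3 to 20.3) pointing apart. Against these, clusters had fewer facing pairs (difference -10.5 points, interval -14 to -6.61) and more pairs pointing apart (difference 6.27 points, 2.60 to 10.3). In the 61 pairs under 1 kb apart, 59.0% (46.5 to 70.5) were on the same strand, which at this number cannot be told apart from the other pairs.

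CTCF tags were also raised in the sequence between the members. Outside the deposited peaks, from the first to the last summit of the 626 clusters of at least 2 members, the CTCF library had 12710 and the IgG library 3919 tags on 1498393 bp, which scaled by depth is a ratio of 3.09 (2.98 to 3.20). The 25 kb on either side gave 1.43 (1.42 to 1.44), and the sequence between pairs with no further summit within 5 kb gave 2.64 (2.59 to 2.68). The sequence between members is on the whole nearer to a peak than the flanks are, so the ratios were compared in bins of distance from a peak edge. Up to 250 bp from a peak edge the ratio was 3.59 (3.37 to 3.84) between members and 3.04 (2.89 to 3.19) in the flanks, and at 500 to 1000 bp it was 2.75 (2.58 to 2.94) and 2.30 (2.22 to 2.38). At 1 to 5 kb from an edge it was 2.33 (2.11 to 2.57) and 1.54 (1.51 to 1.56). Neighbouring members lay at most 4959 bp apart, so positions between them fill only the near part of this bin. Distances were thus not matched within it. The ratio was higher between members in each bin, by more than counting error. The summits were called over this IgG library, which favours places of low IgG signal. IgG tags were fewer per kb between members than in the flanks, and the part of this in the ratios was not tested. Positions between members can have a peak on both sides at these distances, and the part of tags from the adjoining peaks was not tested.

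**Figure D4:**
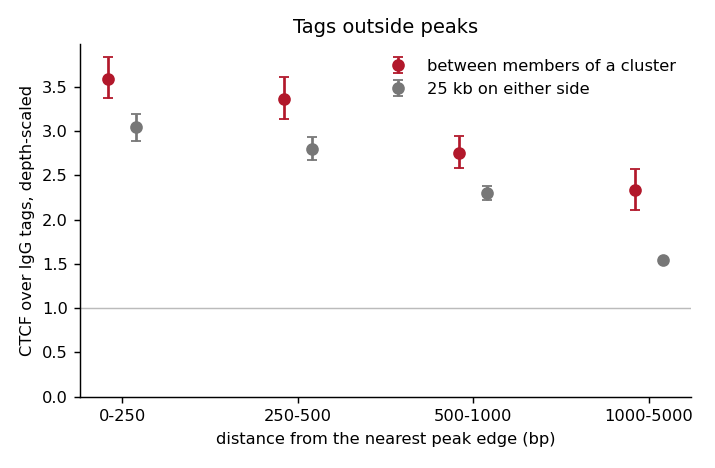
CTCF tags over IgG tags, scaled by depth, outside the deposited peaks by distance from the nearest peak edge, between the members of a cluster and in the 25 kb on either side. Bars are exact 95% intervals and the line marks a ratio of 1. The ratio falls from 3.59 to 2.33 between members and from 3.04 to 1.54 in the flanks. The last bin runs from 1 to 5 kb, and distances inside it were not matched.

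The sequence between members also held more motifs that were not in a peak. There were 26.1 motif matches per 100 kb (exact Poisson interval 23.5 to 28.8, 384 matches) between members, outside the peaks, and 19.4 (18.9 to 19.9, 5592 matches) in the flanks. These densities were not matched for distance from a peak, and the part of nearness to peaks was not tested. IgG tags were not raised between members, with 2.62 per kb there and 3.17 per kb in the flanks.

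By the GENCODE M1 annotation, clustered sites lay between genes more often and in introns less often than solitary sites. Intergenic sequence held 50.7% (48.7 to 52.8) of members and 45.1% of sites with 0 others, a difference of 5.61 points (3.50 to 7.73), and introns held 36.1% (34.1 to 38.0) and 43.6%, a difference of -7.58 points (-9.59 to -5.52). Sites with 1 other were like the solitary ones in both, with 44.1% between genes and 42.8% in introns, and members differed from them by 6.67 (4.38 to 8.96) and -6.73 points (-8.93 to -4.49). Exons held 6.22% of members and 4.75% of sites with 0 others (difference 1.47, 0.523 to 2.55), but 5.63% of sites with 1 other, with an interval of that difference from -0.453 to 1.75. The share within 1 kb upstream of a gene start was 6.98% and 6.49%, with an interval of the difference from -0.521 to 1.63 points. The intergenic and exonic differences did not hold at every distance limit tried, and those values are given in the closing section. Members of a cluster lie close together and can share a place, while the intervals treat each summit as separate. The intervals can therefore be too narrow, and these differences are given as a description.

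Sites with near neighbours, clustered or not, lay closer to gene starts than solitary sites. Members lay a median of 15900 bp from the nearest protein-coding gene start, sites with 1 other 17672 bp and sites with 0 others 26242 bp. More than 25 kb from such a start lay 36.0% of members and 51.3% of sites with 0 others, a difference of -15.3 points (-17.3 to -13.2). Sites with 1 other had 39.7%, much nearer to the members (difference -3.71, -5.91 to -1.48). These intervals also treat grouped members as separate and can be too narrow. A median of 4 protein-coding genes started within 100 kb of a member, 3 within 100 kb of a site with 1 other and 2 within 100 kb of a site with 0 others. The median GC content in 300 bp was 47.2% both at members and at sites with 1 other, and 45.8% at sites with 0 others, while CpG-rich sequence held 2.20%, 2.67% and 2.33%. A position near genes and this GC content were thus largely shared by sites with a single neighbour. Of the 580 clusters of at least 3, 41 (7.07%) had a protein-coding gene start inside the span, 202 (34.8%) lay wholly inside 1 protein-coding gene and 293 (50.5%) touched none.

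The share of summits that were clustered varied by chromosome. It was highest on chromosome 11 with 10.2% (9.10 to 11.4, 279 of 2741 summits), followed by chromosome 17 with 9.25%, chromosome 18 with 9.22% and chromosome 7 with 8.90%. It was lowest on chromosome 16 with 4.72% (3.63 to 6.12, 53 of 1123). The rule uses summit positions, so the share depends on how densely summits lie, which was not set beside it. Members also come in groups, while the intervals treat each summit as separate. The shares are therefore given as a description.

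The cluster with the highest summed height, 130 tags over 6 members, lay on chromosome 12 from 114454060 to 114462618, between genes and 29946 bp from the start of Tmem121. From first to last its members had heights of 14, 23, 20, 16, 47 and 10 tags. The 5 motifs printed above belong to the last 5 members and are all on the plus strand, while the first member has none. Within 150 bp of its span were 348 CTCF tags and 21 of IgG, which gives a ratio of 15.8 after scaling. The constant region gene Ighg of the immunoglobulin heavy chain locus lies 81982 bp away, a landmark that was chosen after the cluster had been seen. The fifth, with 47 tags, has the highest score in the cluster at 750.85, and the second, with 23 tags, follows with 567.69.

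Another group of 6, the Calm3 cluster on chromosome 7 from 17513899 to 17522863, lies between Calm3, a calmodulin gene, and Pnmal2. Its heights were 8, 32, 12, 14, 8 and 17. The strongest motif in the cluster, at 24.3 bits, belongs to the third member with 12 tags, and the highest member, with 32 tags, has 17.2 bits. Height and motif strength therefore did not go together within it. The span holds 200 CTCF and 14 IgG tags, a ratio of 13.6.

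The 2 clusters of 8 are also the widest. The one on chromosome 18 from 37644458 to 37663308 runs over Pcdhb17, Pcdhb18 and Pcdhb19, members of the beta group of clustered protocadherins, which are cell adhesion proteins of neurons expressed from alternative promoters. Its heights were 19, 9, 17, 13, 10, 8, 8 and 10. The first and the third, at 217 bp from the start of Pcdhb17 and 95 bp from that of Pcdhb18, were the highest and the only ones with a motif. The fifth, 350 bp from the start of Pcdhb19, had 10 tags and no motif at this threshold, and of the others 2 lay in coding exons, 2 in untranslated exons and 1 within 1 kb upstream of an annotated transcript start. The one on chromosome 10 from 74383874 to 74401184 touches no protein-coding gene and lies 28738 bp from the start of Gnaz. Its heights were 17, 9, 11, 9, 10, 29, 14 and 10, and 4 members had a motif, the leading pair on the minus and the trailing pair on the plus strand, so that these motifs point outward.

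The clusters of 7 held no summit above 19 tags. The Tbx3 cluster on chromosome 5 from 120153222 to 120163150, 32544 bp from the start of Tbx3, a T-box transcription factor gene, had heights between 8 and 14. Its 3 motifs of 24.2, 24.1 and 23.2 bits are near the maximum of the scale, while their summits have 9, 12 and 13 tags. The highest summit, with 14 tags, has none. The other, on chromosome 11 from 96636217 to 96651567, runs from Snx11, a sorting nexin gene, into Cbx1, which encodes heterochromatin protein HP1 beta. It had heights of 15, 10, 14, 19, 9, 10 and 12, and the third summit lies 131 bp from the start of Snx11. With 60 IgG tags in its span and a ratio of 4.43, it stands lower over IgG than the other clusters with the most members.

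**Figure D5:**
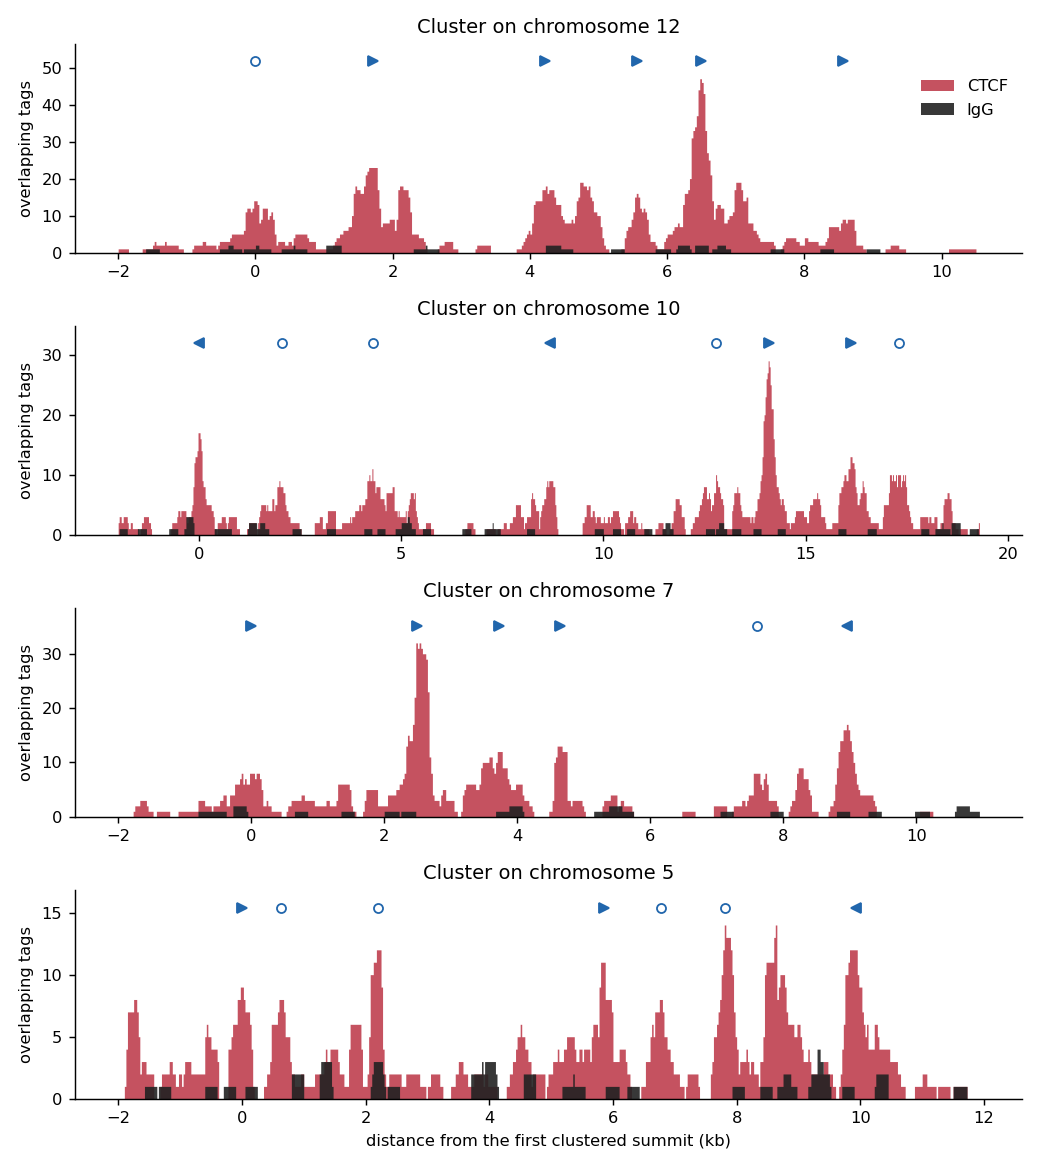
Pileup of CTCF and IgG tags, extended to 184 bp, over 4 of the clusters with the most members, by distance from the first member. The y axis is the highest number of overlapping tags in bins of 25 bp. Triangles mark members with a motif and point along its strand, and open circles mark members without one. CTCF reaches 47, 29, 32 and 14 tags on chromosomes 12, 10, 7 and 5, where IgG reaches 2, 3, 2 and 4.

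Clusters can hold sites of very unlike height. In an intron of Rtkn2 on chromosome 10 the 4 members had 34, 13, 6 and 8 tags, a ratio of highest to lowest of 5.67. In an intron of C1qtnf9 on chromosome 14 the middle of 3 members had 61 tags, the highest of all clustered sites, and the others 11 each, and all 3 had a motif. Between genes near Srsf3, a splicing factor gene on chromosome 17, the heights were 42, 8 and 15, again with 3 motifs. The cluster near Txnl1 on chromosome 18 had 38, 28, 10 and 7, with a motif at the first 2 members only. Low members in these clusters thus occurred with and without a motif.

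The shortest clusters of at least 3 spanned 1339 bp near Btf3 on chromosome 13, 1432 bp in an intron of Mctp2 on chromosome 7 and 1457 bp in Parn on chromosome 16, where the third member lies in a coding exon. The Mctp2 cluster had heights of 29, 10 and 32, with motifs at both outer members and none in the middle. The Btf3 cluster had 9, 9 and 12, again with no motif in the middle, and the Parn cluster 8, 8 and 12 with a motif at the last only. The Meox1 cluster on chromosome 11, next in width with 16327 bp and 18006 bp from the start of the homeobox gene Meox1, had heights of 26, 8, 20, 8 and 12, and its highest member was the only one with no motif.

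The 4 members in an intron of Cdh3, which encodes P-cadherin, on chromosome 8 from 109051680 to 109059524 had 29, 38, 8 and 26 tags. The low site, with 8 tags, is the only one with no motif. A cluster of 3 on chromosome 8 from 19980669 to 19984848 reached a summed height of 129 with 24, 55 and 50 tags, each with a motif. It differs from the others in its IgG tags, with 2, 15 and 12 at the members, and the closing section gives its values. Over the 626 clusters of at least 2, the IgG density was a median of 0.910 times that of the flanks (quartiles 0.716 to 1.12). The summits were called over this IgG library, which favours places of low IgG signal, so no conclusion is drawn from this median.

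In gene families the clustered protocadherins stood out by count. Of the 24 genes that the annotation holds under these names, 12 (50.0%) held a cluster in the gene body or within 5 kb of it. Of all 21418 protein-coding genes, 806 (3.76%) did. Clusters of a single site count here and in the lists below. The 12 genes share 8 clusters and lie side by side, so they are not 12 separate observations. Besides the cluster of 8 described above, a cluster of 5 in an intron of Pcdha11 had heights of 15, 11, 8, 12 and 7, and a cluster of 6 in Pcdhgc5 had 9, 11, 24, 7, 18 and 7. Motifs were few, at 2 of 5 and 1 of 6 members. Both genes are annotated as long models, of 257373 bp for Pcdha11 and 167539 bp for Pcdhgc5. The gene start nearest to the Pcdha11 cluster is that of Pcdha3, 21493 bp away. The intron is thus that of the long model and can hold other genes of the family.

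The other families in tandem arrays that were listed had no such share. Clusters were found at 0 of 1106 olfactory receptor genes and 0 of 321 vomeronasal receptor genes. They were found at 0 of 40 Hox genes and 0 of 67 histone genes, lists too short to set 0 against the 3.76% of all genes. Keratin genes had 2 of 51 (3.92%) and MHC genes 1 of 36 (2.78%), both near the share of all genes. Ribosomal protein genes had 9 of 75 (12%). Zinc finger protein genes had 10 of 387 (2.58%), close to the share of all genes. Of the genes for CTCF and cohesin subunits, 0 of 13 held one, the Ctcf gene itself lying in the stretch left out.

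Of 22 pluripotency factor genes, 2 (9.09%) held a cluster, a count too small to set against the share of all genes. The site in the coding exon of Pou5f1 on chromosome 17 had a height of 18 with 21 CTCF and 0 IgG tags, which is at least 6.66 times IgG when 3 IgG tags are assumed. Its neighbours lie 1058 bp away with a height of 10 and 4643 bp away, in an intron of Tcf19, with a height of 39, and all 3 have a motif. Near Dppa3, a germ cell and pluripotency gene on chromosome 6, the 3 members had heights of 9, 21 and 13, and the last 2 had a motif on the minus strand. Of 38 imprinted genes found, 1 (2.63%) held a cluster, near the 3.76% of all protein-coding genes. It was Mcts2, whose cluster lies in its host gene H13, where the heights were 8, 17 and 15 and all 3 motifs are on the plus strand.

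Clusters inside 1 gene body were mostly single. A member lay in the body of 490 protein-coding genes, 206 of these held at least 3 members and 19 held members of at least 2 clusters. Gm20388, an annotated gene model of 4434882 bp, held 5 clusters with 9 members among 140 summits. Among the other genes Dnahc8, a dynein heavy chain gene on chromosome 17, held the most, with 4 clusters and 10 members among 29 summits in 250911 bp. Itpr2, an IP3 receptor gene, held 2 clusters with 6 members among 10 summits, and Nav2 held 2 clusters with 6 among 18. Fry had 28 summits in a body of 379086 bp but only 2 members, in 2 clusters. Genes with similar numbers of summits, such as Dnahc8 and Fry, thus held unlike numbers of clustered ones.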

How the data were processed

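For the CTCF and the IgG library, the authors deposited each aligned tag as a line that carries a count of 1, and for CTCF also peaks with a score and summits with a signal, the height of the tag pileup. The submitters' processing notes name MACS 1.4 and mm9. The aligner is not given in the sources used here. The lowest deposited score is 50.

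Peaks and summits were joined by name. Each tag was placed at the centre of its fragment, 92 bp from its 5′ end for the estimated length of 184 bp, and counted within 150 bp of each summit, with the CTCF to IgG ratio scaled by total tags. The motif matrix of 19 bases was made from 192 CTCF sequences of the study's motif table, which was held in part, and places came from GENCODE M1 on NCBI m37, the same assembly as mm9. Shares have Wilson and differences Newcombe intervals at 95%, ratios have exact ones, and all cover counting error only: sites are not replicates. No p-value was computed, as there is 1 library per antibody. The selection and interval steps were tested on simulated data. The tools were pysam 0.24.0, pandas 2.3.3, scipy 1.17.1, matplotlib 3.10.9 and numpy 2.4.6 under Python 3.11.15.

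Clusters named are the 6 with the most members, the 4 with the highest summed height, the 3 shortest and 3 widest, the 4 with the largest height ratio, up to 5 with identical motifs, up to 3 per gene list and the 5 genes with most clusters. The members and lists were chosen with earlier results of these data known. Alternatives were another distance limit, score, window, scaling, motif threshold and annotation.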

Additional observations from a re-analysis of the deposited data

Results flagged for a closer look

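The cluster on chromosome 8 from 19980669 to 19984848 drew attention by a signal in the IgG library, which is the control. Over its span and 1 kb on either side, the IgG density was 3.61 times that of the adjoining 25 kb (exact interval 2.76 to 4.67, from 86 and 193 tags), and it was the only one of 626 clusters at 2.5 times or more. The cluster nearest in this measure, also with 3 members and on chromosome 8 from 19703287 to 19707194, was at 2.16 times (1.46 to 3.13, from 36 and 141 tags). CTCF exceeded IgG in both windows, with depth-scaled ratios of 4.59 and 4.15. The 3 summits of the first cluster lie in the overlapping gene models 2610005L07Rik, Gm17279 and AC152164.1, with scores of 252.64, 422.60 and 378.43. What raises the IgG tags there was not tested.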

How the results depend on the processing

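No paired analysis was possible because each antibody has 1 library. Over 22 results, 78 alternatives were run, of which 33 were classed as the same as the main result and 38 as moved. A share, median or ratio was classed as moved when it lay outside the interval of the main setting. Counts have no interval and were classed by the size of their change. Differences were weaker in 4 alternatives, where the interval came to include no difference, and stronger in 2, where it came to exclude it. In 1 alternative a difference changed sign. A stricter or looser limit changes by construction the number of sites or motifs that pass it. Why the other values changed was not tested. The depth limits single sites most, where the median member has 14 CTCF tags and 1 IgG tag within 150 bp.

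With 2.5 kb as near, there were 613 members in 341 clusters, 2.35% of them with 4 or more members (13.3% at 5 kb). Of the members 56.6% had a motif, 5.87% lay in promoters, 33.9% in introns and 54.6% between genes. The promoter difference from sites with 0 others turned to -0.935 points, with an interval that includes 0 as before, and the exon difference of 0.507 no longer left out 0. With 10 kb there were 5951 members in 2080 clusters, 24.3% with 4 or more, 70.2% of members with a motif, 8.20% in promoters, 39.3% in introns and 46.5% between genes. The promoter difference of 2.17 then left out 0, and the intergenic one of 0.790 did not.

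With scores of at least 100 there were 488 members in 244 clusters, 6.15% with 4 or more, a median height of 16, a motif share of 79.9%, exons at 8.20%, introns at 34.0%, a GC content of 48.5% and a tag ratio of 18. The motif difference shrank to -0.952 points (-4.78 to 2.42). The tag ratio at members was 12.4 within 250 bp and 17.1 when scaled by tags outside peaks. Between members it was 3.44 with that scaling and 2.88 with peaks widened by 250 bp. With tags extended to 150 bp the pileup fell to 0 in 97.1% of pairs. The motif share was 78.3% at p 1e-04 and 30.4% within 50 bp.

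With protein-coding genes only, promoters held 6.01%, exons 5.29% and intergenic sequence 54.0%. With promoters of 5 kb the shares were 24.3%, exons 4.74%, introns 30.1% and intergenic 40.8%, the promoter difference of 5.40 left out 0 and the intergenic one of 1.51 did not. The GC content in 50 bp on either side was 48.5%. The motif difference stayed below 0 in all alternatives run, and the intron difference left out 0 in all of them.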

Other observations

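Some clusters at genes of the lists have not been described yet. At H2-DMa, an MHC class II chaperone gene on chromosome 17, the 3 members had heights of 11, 12 and 45, and the last, in the untranslated exon 211 bp from the gene start, carried 46 CTCF and 3 IgG tags. At Rpl3 on chromosome 15 the heights were 20, 8 and 11, with 3 motifs on the minus strand, and at Rpl36 on chromosome 17 they were 10, 8 and 20, the last 112 bp from the gene start and the only one with a motif. Over Rpl13a and Flt3l on chromosome 7 all 4 members, with heights of 11, 11, 14 and 13, lay within 1 kb upstream of an annotated transcript start.

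Around Zfp385a, a zinc finger gene on chromosome 15, there were separate clusters at both ends. The one that reaches into its body had heights of 9, 20 and 19, with 98 CTCF tags and 1 IgG tag in the span. The one on the other side, running into the integrin gene Itga5, had 10, 20, 16 and 12 with motifs at 3 of 4 members. At Krt28 on chromosome 11 the highest of 4 members, with 23 tags in an intron, had no motif, and the only motif was at the first, with 13 tags.

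The share of members with a motif within 1 kb upstream of gene starts was 56.4% (48.7 to 63.7) and in exons 63.9% (55.9 to 71.3). The intervals of the differences from sites with 0 others in the same places, -14.9 to 0.835 and -16.2 to 0.0303 points, include 0. In introns the difference was -8.10 points (-11.4 to -4.93) and between genes -10.6 (-13.4 to -7.84). From sites with 1 other, members differed by -6.38 points (-9.45 to -3.37) between genes. In introns that difference was -1.67 points, with an interval from -5.22 to 1.76 that includes 0. The intronic shortfall was thus not told apart from that of sites with 1 other.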
